A study of Rattus norvegicus with 6 samples.

Results

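The genes described here are the PGC-1 coactivators and the factors that act with them in mitochondrial biogenesis. They were the 10 rows of the deposited count table named Ppargc1a, Ppargc1b, Pprc1, Esrra, Nrf1, Gabpa, Tfam, Sirt1, Prkaa1 and Prkaa2, out of 56748 rows. Each name matched 1 row, and all 10 were among the 16993 genes tested. The samples were cultures of primary sensory neurons from the dorsal root ganglion, labelled as rat, and their poly(A)-selected RNA was sequenced. In 3 libraries (EVadMu) the neurons had received extracellular vesicles, small membrane particles shed by cells, from muscle that had recently lost its nerve supply. In the other 3 libraries (EVMu) the vesicles came from muscle with its nerve intact. The labels give no strain, age, vesicle dose or exposure time, and no group without vesicles was analysed here, so a higher level in EVadMu cannot be told apart from a lower one in EVMu. Nor do they say whether a group's libraries were separate cultures, so p-values reflect only how these libraries vary among themselves, possibly for technical reasons.

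The PGC-1 proteins are coactivators: they bind no DNA themselves but are recruited by transcription factors and raise the output of nuclear genes for mitochondria. Their partners include the nuclear receptor ERRα (Esrra), nuclear respiratory factor 1 (Nrf1, a different gene from the oxidative stress factor NRF2) and the ETS factor GABPα (Gabpa). These factors in turn act on genes such as Tfam, whose product packages mitochondrial DNA and starts its transcription. PGC-1α is modified by enzymes that read the energy state of the cell, the NAD-dependent deacetylase SIRT1 and the kinase AMPK. In sensory neurons, mitochondria made near the cell body supply very long axons.

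Gene counts summed to between 16551228 and 16699450 in the EVadMu libraries and between 14853115 and 17019877 in the EVMu libraries. The groups differed over most of the transcriptome: at an adjusted p of 0.05, edgeR's test called 80.0% of the tested genes. Those called higher in EVadMu were 39.2% of all tested, and those called lower 40.8%. Markers of other cells moved with the groups. Of 10 tested fibroblast markers 9 were lower and 1 higher, with summed levels of 516 to 532 CPM (a gene's counts relative to the TMM-scaled library total) in EVadMu and 5750 to 5830 CPM in EVMu. Of 11 tested markers of Schwann cells and satellite glia 10 were lower and 0 higher, with sums of 1180 to 1200 and 4140 to 4180 CPM, and all 8 endothelial and mural markers were lower, with sums of 109 to 112 and 664 to 690 CPM. In these lists Fbln1, Lum, Kcnj10 and Acta2 passed the filter on counts only through EVMu, so their direction was in part set by the filter. Of 19 neuronal markers 15 were lower and 1 higher, with sums of 4490 to 4620 CPM in EVadMu and 7250 to 7490 CPM in EVMu. None was at 0 throughout a group, but this held for every marker list and so does not test the label of neurons. Of 6 tested macrophage markers 5 were lower and 1 higher, with sums of 133 to 138 CPM in EVadMu and 29.4 to 35.4 CPM in EVMu. The 1 that was higher was the lysosomal gene Cd68, at means of 131.4 CPM in EVadMu and 12.9 CPM in EVMu. Cd68 made up nearly all of the EVadMu sum, so the sums do not show the direction of the other markers. Of the 5 lower ones, Adgre1, Ptprc, Cd74 and Mrc1 passed the filter on counts only through EVMu. Their lower calls were thus in part set by the filter, which does not hold for Csf1r. Of 10 listed skeletal muscle markers 6 were tested, and all 6 were higher. Their sums were 27.6 to 31.7 CPM in EVadMu and 7.41 to 8.10 CPM in EVMu. Ckm, Myh4 and Tnnt3, at means of 2 to 3 counts in EVMu, passed the filter on counts only through EVadMu. Their direction was thus fixed by the filter. Of the untested markers, Myog had fewer counts in EVadMu, 3 in sum against 8, and Mb, Myh1 and Myh2 had more. The part of these markers in the results on the PGC-1 genes was not tested. Fewer cells of a type and less RNA per cell cannot be told apart in such bulk samples.

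Promoter stretches are shown for 3 of the genes that were higher in EVadMu, because each holds the letters of a motif bound by factors that act on metabolic or mitochondrial genes. They are rat sequences from RefSeq on GRCr8, read 5′ to 3′, since the samples are labelled as rat, whereas the count table carries mouse gene identifiers. Capitals mark the motif. For Ppargc1a this is the cyclic AMP response element TGACGTCA, 181 to 174 bases before the annotated start of the gene (chr14:63634078-63634197, plus strand). For Tfam it is the GABP/ETS motif ACTTCCGG, here on the opposite strand, 56 to 49 bases before the start (chr20:17355253-17355372, plus strand). For Sirt1 it is the E-box CACGTG, at 118 to 113 and at 46 to 41 bases before the start (chr20:25305833-25305952, plus strand).
Ppargc1a: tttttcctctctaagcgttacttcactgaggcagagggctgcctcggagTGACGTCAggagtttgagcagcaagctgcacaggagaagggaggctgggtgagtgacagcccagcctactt
Tfam: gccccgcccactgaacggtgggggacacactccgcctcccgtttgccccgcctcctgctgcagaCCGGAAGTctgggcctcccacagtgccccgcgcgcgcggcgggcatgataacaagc
Sirt1: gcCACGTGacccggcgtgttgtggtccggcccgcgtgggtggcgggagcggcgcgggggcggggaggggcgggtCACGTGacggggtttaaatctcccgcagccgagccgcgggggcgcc

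All 10 genes had a promoter entry, and 5 motifs were searched on both strands of the 250 bases before each start. No motif contains another, and no matches overlapped. TGACGTCA was in 1 of the 10 promoters and in 1.59% of the 33469 rat promoters, ACTTCCGG in 1 of 10 and 3.10%, and CACGTG in 1 of 10 and 5.59%. The NRF-1 core GCGCATGC was in 1 of 10, that of Esrra at 115 to 108 bases before the start, and in 2.20% of all promoters. The ERR response element TCAAGGTCA (0.388% of all promoters) was in none of the 10 windows. A match describes the letters and shows no binding, and no match says only that these letters are not in this window.

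Ppargc1a, the gene of PGC-1α, had the largest log2 fold change of the 10 genes. Its level was 79.6, 76.0 and 77.2 CPM in EVadMu libraries 1 to 3, against 9.73, 12.8 and 12.6 CPM in EVMu libraries 1 to 3, the order kept for every gene below. Each EVadMu library was far above each EVMu library. The log2 fold change was 2.72 ± 0.076 (SE), a 6.61-fold higher level, with an adjusted p of 1.02e-26 in edgeR's test. Of all tested genes, 1.96% had a log2 fold change at least as high. The coefficient of variation was 2.32% in EVadMu and 14.7% in EVMu, where counting error alone gives 7.25% at the mean of 190.3 counts.

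Pprc1 encodes the PGC-1-related coactivator PRC, which in other cells is known as an early growth-responsive member of the family. It stood at 166, 173 and 166 CPM in EVadMu and at 61.6, 63.9 and 64.9 CPM in EVMu, without overlap. Its log2 fold change was 1.41 ± 0.045 (SE; edgeR adjusted p = 3.60e-25), and 10.2% of tested genes had one at least as high.

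Ppargc1b, the gene of PGC-1β, was the member with the fewest counts, 117 to 161 per library in EVadMu and 77 to 81 in EVMu. Its level was 8.06, 10.1 and 7.40 CPM in EVadMu and 4.96, 5.25 and 4.48 CPM in EVMu. The libraries did not overlap, but the EVadMu libraries were spread more widely than those of EVMu. The coefficient of variation was 16.7% in EVadMu, against 8.57% from counting error alone, and 8.0% in EVMu, against 11.3%. The log2 fold change of 0.80 ± 0.163 (SE) had the largest error of the 10 genes and passed edgeR's test (adjusted p = 3.92e-05). A log2 fold change at least as high was found for 22.8% of tested genes.

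**Figure D1:**
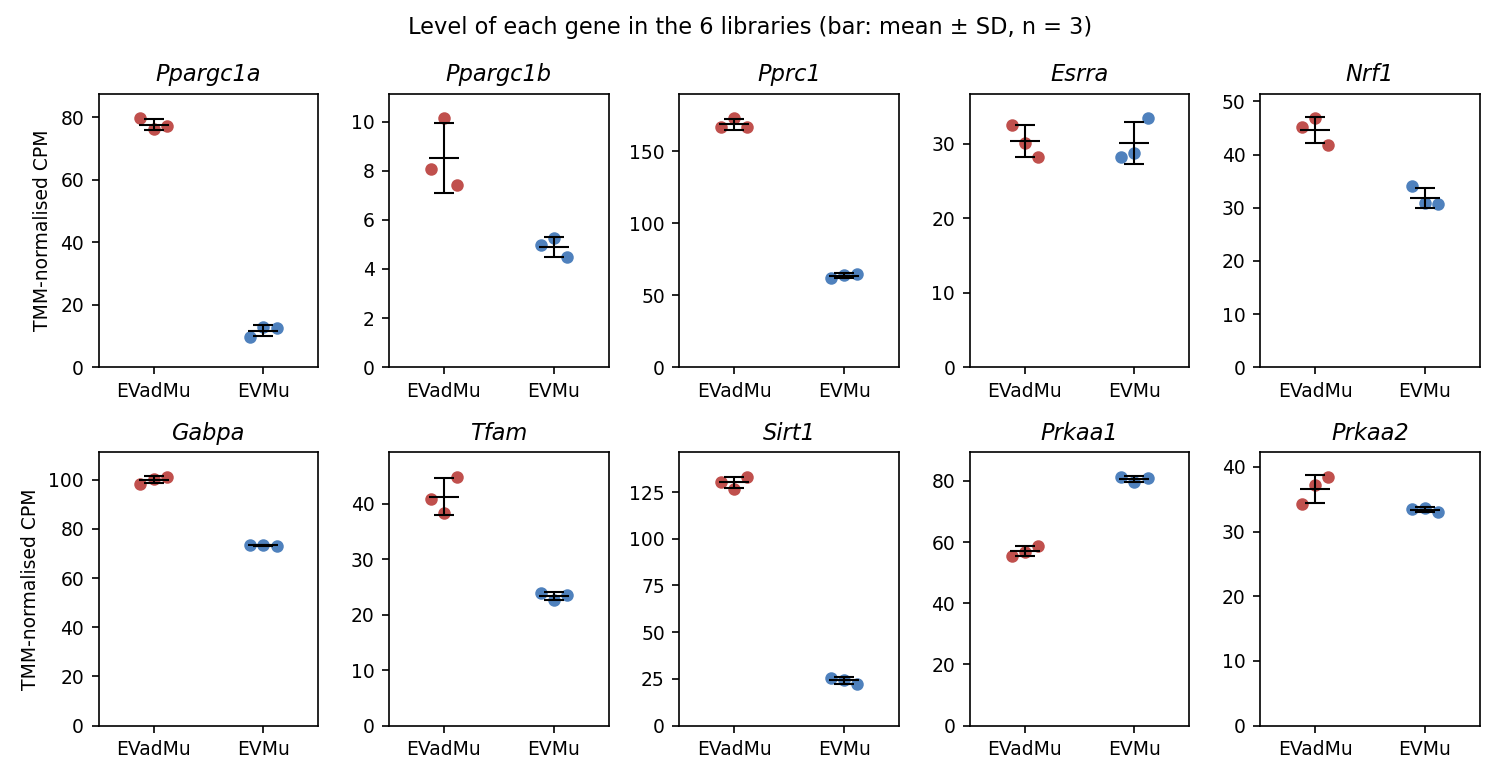
Level of each of the 10 genes (TMM-normalised CPM, linear axis from 0) in the EVadMu libraries (red points, left) and the EVMu libraries (blue points, right), with mean and SD as black bars (n = 3 each). Ppargc1a and Sirt1 show the largest fold differences, at means of 77.6 and 130.1 CPM in EVadMu against 11.7 and 24.2 CPM in EVMu, while the Esrra libraries of both groups overlap.

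The 3 coactivator genes differed in the size of their change: the 95% intervals of the log2 fold change were 2.57 to 2.88 for Ppargc1a, 1.32 to 1.5 for Pprc1 and 0.47 to 1.14 for Ppargc1b. The make-up of the family differed with it. Ppargc1a gave 29.4 to 31.3% of the family's counts in EVadMu and 12.8 to 15.7% in EVMu, while Pprc1 gave 65.5 to 66.7% in EVadMu and 77.9 to 80.7% in EVMu. Ppargc1b gave 2.95 to 3.91% in EVadMu and 5.46 to 6.50% in EVMu. These ranges do not overlap between groups. Shares and sums of counts weight each gene by its transcript length and by the fraction of its reads that was recovered, neither of which was measured, so they do not rank the genes. Summed over the family, the level was 254.6 ± 4.00 CPM in EVadMu and 80.05 ± 3.27 CPM in EVMu (SD, n = 3 each), a ratio of 3.18.

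**Figure D2:**
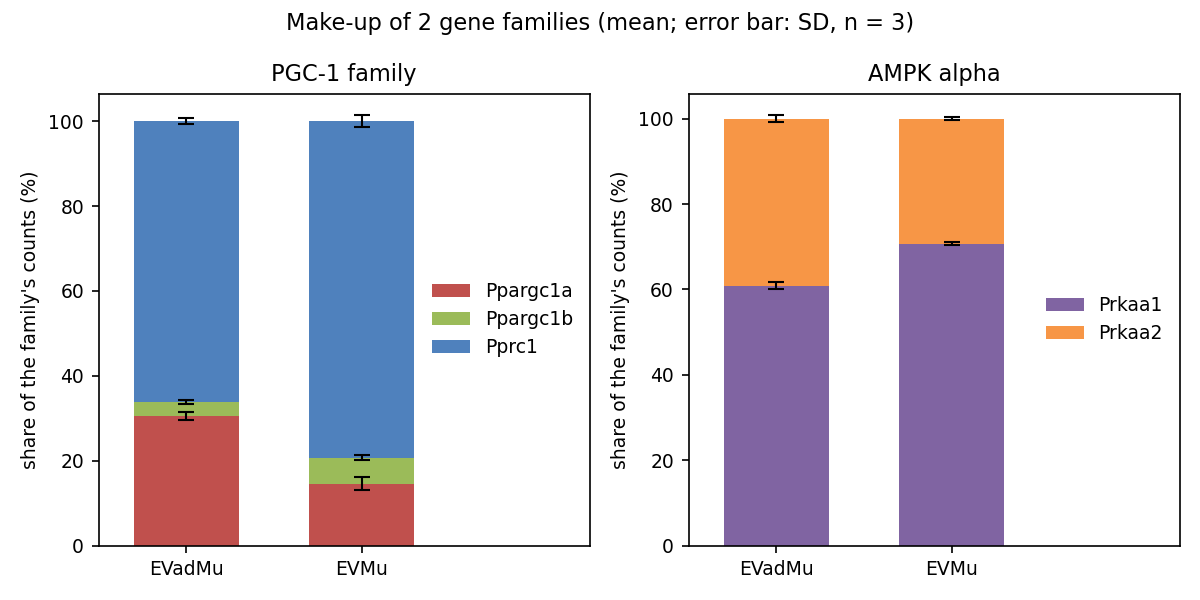
Mean share (%) of the counts of the PGC-1 family (left panel) and of the AMPK catalytic subunits (right panel) held by each gene, in EVadMu (left bar) and EVMu (right bar), with the SD over 3 libraries as error bars. Ppargc1a held 30.5% of the PGC-1 family counts in EVadMu and 14.6% in EVMu, and Prkaa2 held 39.1% and 29.3% of the AMPK counts.

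The genes of the DNA-binding partners had smaller log2 fold changes than Ppargc1a, and Esrra did not pass the test. Esrra encodes ERRα, an orphan nuclear receptor through which PGC-1α drives genes of oxidative metabolism. Its level was 32.5, 30.1 and 28.2 CPM in EVadMu and 28.2, 28.8 and 33.4 CPM in EVMu. The groups overlapped, and the log2 fold change was 0.01 ± 0.080 (SE; edgeR adjusted p = 0.952), with a 95% interval of -0.16 to 0.17.

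Nrf1 and Gabpa encode the factors that bind many promoters of nuclear respiratory genes. Nrf1 was at 45.1, 46.8 and 41.9 CPM in EVadMu and at 34.1, 30.8 and 30.8 CPM in EVMu, a log2 fold change of 0.49 ± 0.068 (SE; edgeR adjusted p = 8.03e-08). Gabpa, the DNA-binding subunit of GABP, was at 98.3, 100.2 and 101 CPM in EVadMu and at 73.6, 73.4 and 73.1 CPM in EVMu. The libraries did not overlap for either gene, and the spread of Gabpa within EVMu was the smallest of the 10 genes (coefficient of variation 0.30%). This lies below the 2.90% that counting error alone gives, so it does not show an unusually steady level. Its log2 fold change was 0.44 ± 0.046 (SE; edgeR adjusted p = 1.23e-10). Changes of this size or higher were common, found for 32.6% of tested genes in the case of Nrf1 and 33.9% in that of Gabpa.

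Tfam had 40.8, 38.2 and 44.8 CPM in EVadMu and 23.8, 22.6 and 23.6 CPM in EVMu. The lowest EVadMu library was above the highest EVMu library. The log2 fold change was 0.82 ± 0.075 (SE; edgeR adjusted p = 4.68e-12), 1.77-fold, and 22.2% of tested genes were at or above it. The stretch with the GABP/ETS letters printed above belongs to this gene.

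Among the enzymes that act on PGC-1α, Sirt1 was higher and Prkaa1 lower in EVadMu, and Prkaa2 was not called. SIRT1 removes acetyl groups from PGC-1α. Sirt1 stood at 130.5, 127 and 133 CPM in EVadMu, against 25.6, 24.6 and 22.3 CPM in EVMu. The EVadMu libraries were all far above the EVMu libraries, at a log2 fold change of 2.43 ± 0.057 (SE; edgeR adjusted p = 4.49e-29) and 5.39-fold. Only Ppargc1a had a larger change among the 10 genes, and 2.62% of all tested genes were at or above Sirt1.

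Prkaa1 encodes α1, a form of the catalytic subunit of AMPK, the kinase that is switched on when ATP runs low. It was the only one of the 10 genes called lower, at 55.6, 56.7 and 58.7 CPM in EVadMu and 81.3, 79.7 and 80.8 CPM in EVMu, with no overlap. The log2 fold change was -0.50 ± 0.051 (SE; edgeR adjusted p = 5.78e-11), and 35.1% of tested genes were at or below it.

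Prkaa2, the gene of the other catalytic form α2, was at 34.2, 37.2 and 38.4 CPM in EVadMu and at 33.5, 33.6 and 33 CPM in EVMu. The EVadMu libraries lay above the EVMu libraries, by a margin that did not pass edgeR's test (log2 fold change 0.13 ± 0.069 SE, 95% interval -0.01 to 0.27, adjusted p = 0.0745). The gene passed in 2 of 14 alternatives, with adjusted p of 0.0408 under RLE scaling and 0.0190 without EVadMu replicate 1. It did not pass in the others, at adjusted p of up to 0.786, the value without scaling factors (log2 fold change 0.02). Prkaa2 gave 38.1 to 39.6% of the counts of both catalytic genes in EVadMu and 29.0 to 29.7% in EVMu. Summed over both, the level was 93.61 ± 3.71 CPM in EVadMu and 114.0 ± 0.755 CPM in EVMu (SD, n = 3 each), a ratio of 0.821.

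Counted over the set, 7 of the 10 genes were called higher, 1 lower and 2 were not called. The share called over all tested genes was 80.0%, with 39.2% higher and 40.8% lower. The number of calls does not set these genes apart, and the split by direction is given as a description. Levels did not overlap between groups for 9 of 10 genes, against 80.7% of all tested genes. Ppargc1a, Pprc1 and Sirt1 were called and at least 2-fold higher, as were 17.6% of all tested genes. The median log2 fold change was 0.64 for the 10 genes and -0.02 for all tested genes.

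**Figure D3:**
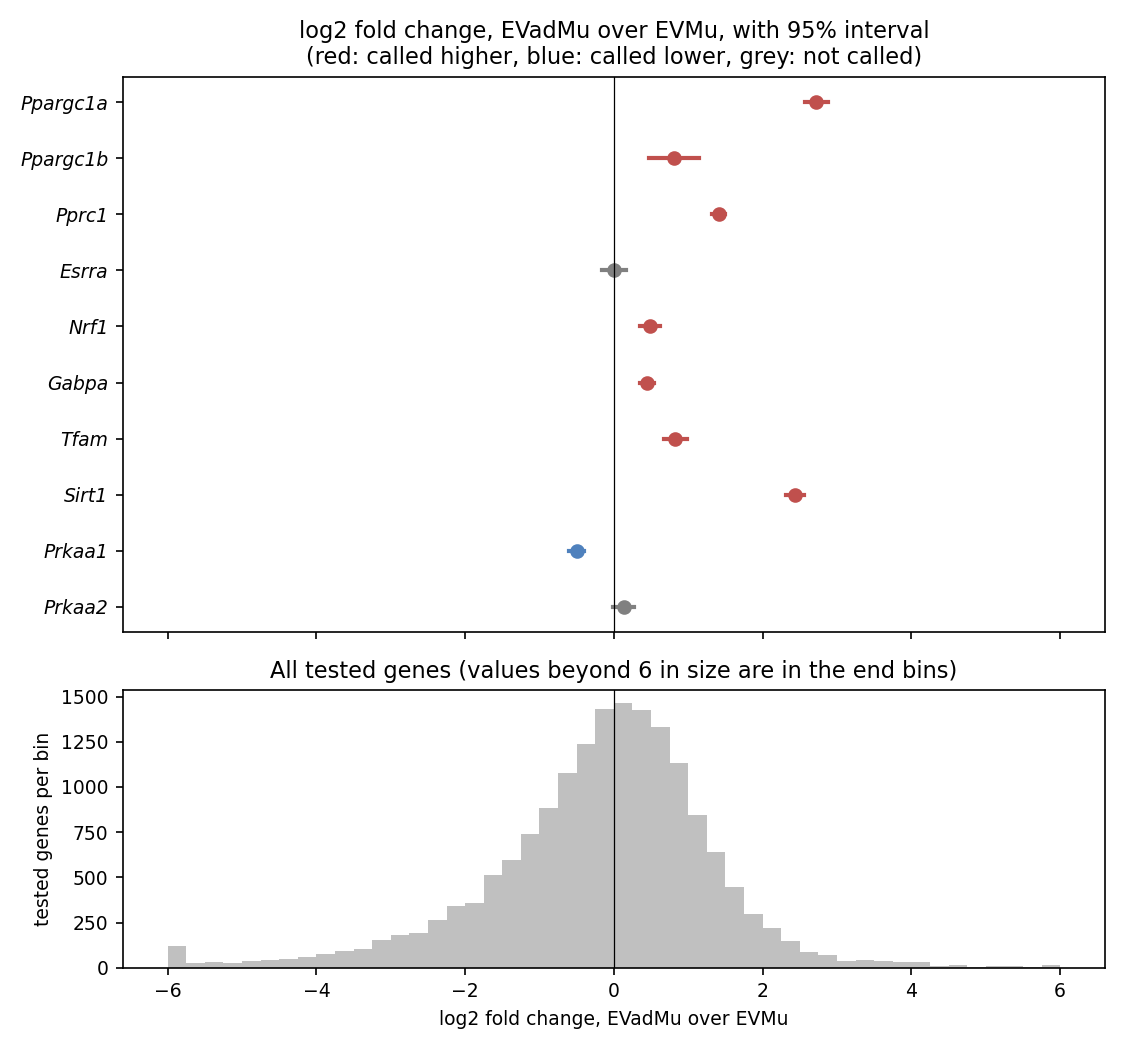
Upper panel: log2 fold change of each of the 10 genes, EVadMu over EVMu, with its 95% interval from edgeR's fit (red, called higher; blue, called lower; grey, not called). Lower panel: number of tested genes per bin of log2 fold change on the same axis, against which Ppargc1a at 2.72 and Sirt1 at 2.43 lie in the upper tail and Esrra at 0.01 near the centre.

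The rest of the pathway was read from 8 lists, in which 115 of 133 tested genes were called (86.5%, against 80.0% of all tested genes). Beside the splits by direction given below, 39.2% of all tested genes were called higher and 40.8% lower. The lists for AMPK and for the sirtuins held calls in both directions in near equal number, and their medians lay close to that of all genes. In the AMPK list, of subunits and regulators, 8 of 17 were higher and 8 lower, with a median log2 fold change of 0.02 (-0.10 to 0.04 under other scalings). From here on, a rise or fall means a higher or lower level in EVadMu than in EVMu, neither group being a baseline. The folliculin gene Flcn and its partner gene Fnip1, whose products restrain AMPK and act in lysosomal nutrient sensing, rose to 156.1 ± 2.76 and 247.6 ± 10.1 CPM in EVadMu, against 30.6 ± 0.682 and 60.51 ± 1.90 CPM in EVMu. The regulatory subunit gene Prkab1 rose by 1.5 ± 0.069 on the log2 scale (SE). The upstream kinase gene Camkk2 and the sestrin genes Sesn1 and Sesn3 fell, with log2 fold changes of -1.59, -1.83 and -1.59. The third sestrin gene, Sesn2, named after its values had been seen, rose by 1.45 on the log2 scale (edgeR adjusted p = 1.35e-24).

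Of 15 genes for sirtuins and NAD synthesis, 5 were higher and 6 lower, with a median log2 fold change of -0.08. Nampt, which makes the NAD precursor nicotinamide mononucleotide, rose to 248 ± 15.3 CPM in EVadMu, against 57.5 ± 6.23 CPM in EVMu. The cytosolic deacetylase gene Sirt2 and the gene Nmnat3 rose as well (log2 fold changes of 1.12 and 1.5). The NAD-consuming ectoenzyme gene Cd38, the axonal NAD synthase gene Nmnat2 and the mitochondrial sirtuin gene Sirt5 fell, at -4.94, -1.28 and -0.99. Cd38 had 2 to 3 counts per library in EVadMu and 69 to 81 in EVMu. It passed the filter on counts only through EVMu, so its direction was fixed by the filter and its size is uncertain. Sirt3, named after its values had been seen, is the main mitochondrial deacetylase gene and did not pass (log2 fold change 0.19, edgeR adjusted p = 0.148).

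Among 28 partner receptors and co-regulators, 14 were higher and 10 lower (median 0.31). Esrrg, a relative of Esrra, rose to 8.47 ± 0.407 CPM in EVadMu, against 2.31 ± 0.512 CPM in EVMu, whereas Esrra was not called. The other relative, Esrrb, was at 2.07 ± 0.311 CPM in EVadMu and 0.573 ± 0.292 CPM in EVMu. With 4 to 13 counts per library in EVMu, Esrrb passed the filter on counts only through EVadMu. Its direction was thus in part set by the filter. The fatty acid receptor gene Ppard rose by 1.51 ± 0.051 on the log2 scale (SE). Rxrg, Foxo1 and Mef2c, genes of a retinoid receptor and of factors that bind the Ppargc1a promoter in muscle and other tissues, fell, with log2 fold changes of -3.21, -1.56 and -1.21. Of 13 enzymes and binding proteins that modify PGC-1α, 7 were higher and 4 lower (median 0.20). Mybbp1a, whose product represses PGC-1α and works in the nucleolus, rose to 577.5 ± 12.5 CPM in EVadMu, against 138.1 ± 5.15 CPM in EVMu. Lpin1 and Prmt1, which activate PGC-1α, rose by 0.74 and 0.63 on the log2 scale. Mapk14, Kat2a and Gsk3b fell, at -0.85, -0.51 and -0.29, Kat2a being the acetyltransferase that opposes SIRT1 on PGC-1α.

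Downstream, of 6 GABP and NRF-1 partners 4 were higher and 1 lower (median 0.41). The subunit gene Gabpb1 rose by 0.57 ± 0.072 and the host cell factor gene Hcfc2 by 0.46 ± 0.068 on the log2 scale (SE), while Hcfc1 fell by 0.26. Tfb2m, the mitochondrial transcription factor that melts promoters beside TFAM, rose to 56.5 ± 2.47 CPM in EVadMu, against 16.6 ± 0.290 CPM in EVMu. Its paralog Tfb1m, named after its values had been seen, did not pass (log2 fold change 0.10, edgeR adjusted p = 0.527). Of 18 genes for transcription and replication of mitochondrial DNA, 13 were higher and 2 lower (median 0.72), against 39.2% and 40.8% of all tested genes. The protease gene Lonp1, which degrades TFAM among other substrates, rose to 422.3 ± 9.63 CPM in EVadMu, against 117.4 ± 4.87 CPM in EVMu. The helicase gene Twnk and the termination factor family gene Mterf3 rose by 1.31 and 1.04, and Dguok and Primpol fell, at -0.66 and -0.52.

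Of 25 tested targets known for PGC-1, ERR or NRF-1, 16 were higher and 5 lower (median 0.41), against 39.2% and 40.8% of all tested genes. Cytochrome c, Cycs, rose to 203.1 ± 7.13 CPM in EVadMu, against 72.6 ± 4.80 CPM in EVMu, and the import receptor gene Tomm20 by 1.21 ± 0.044 on the log2 scale (SE). The largest rise was that of Vegfa at 3.28, a gene that is also a hypoxia target. The uncoupling protein gene Ucp2, the fatty acid importer gene Cpt1a and the mitofusin gene Mfn2 fell, at -2.94, -1.11 and -0.55. Cpt1b, named after its values had been seen, was among the 16 higher. At 5 to 8 counts per EVMu library, it passed the filter on counts only through EVadMu. The 28 names of this list included 2, Atp5f1a and Atp5f1b, that matched no row.

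The mRNAs encoded in mitochondrial DNA, which TFAM helps to transcribe, were lower in EVadMu in 12 of 12 tested, against 40.8% of all tested genes. Their median log2 fold change was -1.43, while Tfam was higher. Their summed level was 4070 to 4220 CPM in EVadMu and 12100 to 12900 CPM in EVMu. The cytochrome oxidase gene mt-Co1 fell to 1148 ± 44.2 CPM in EVadMu, against 5439 ± 178 CPM in EVMu. The lowest ratios of the list also included mt-Nd4l (-2.44) and mt-Co3 (-2.05). For mt-Nd4l the counts were low, 20 to 23 per library in EVadMu and 72 to 156 in EVMu. The value for mt-Co3 rests in part on EVMu replicate 2, at 73.1 CPM beside 27.2 and 26.2 CPM, and was -1.41 without it. The ribosomal RNAs of the same genome made up 0.565 to 0.604% of each EVadMu library and 0.0524 to 0.0541% of each EVMu library. Their difference ran opposite to that of the mRNAs, and whether RNA selection acted alike in both groups was not tested.

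**Figure D4:**
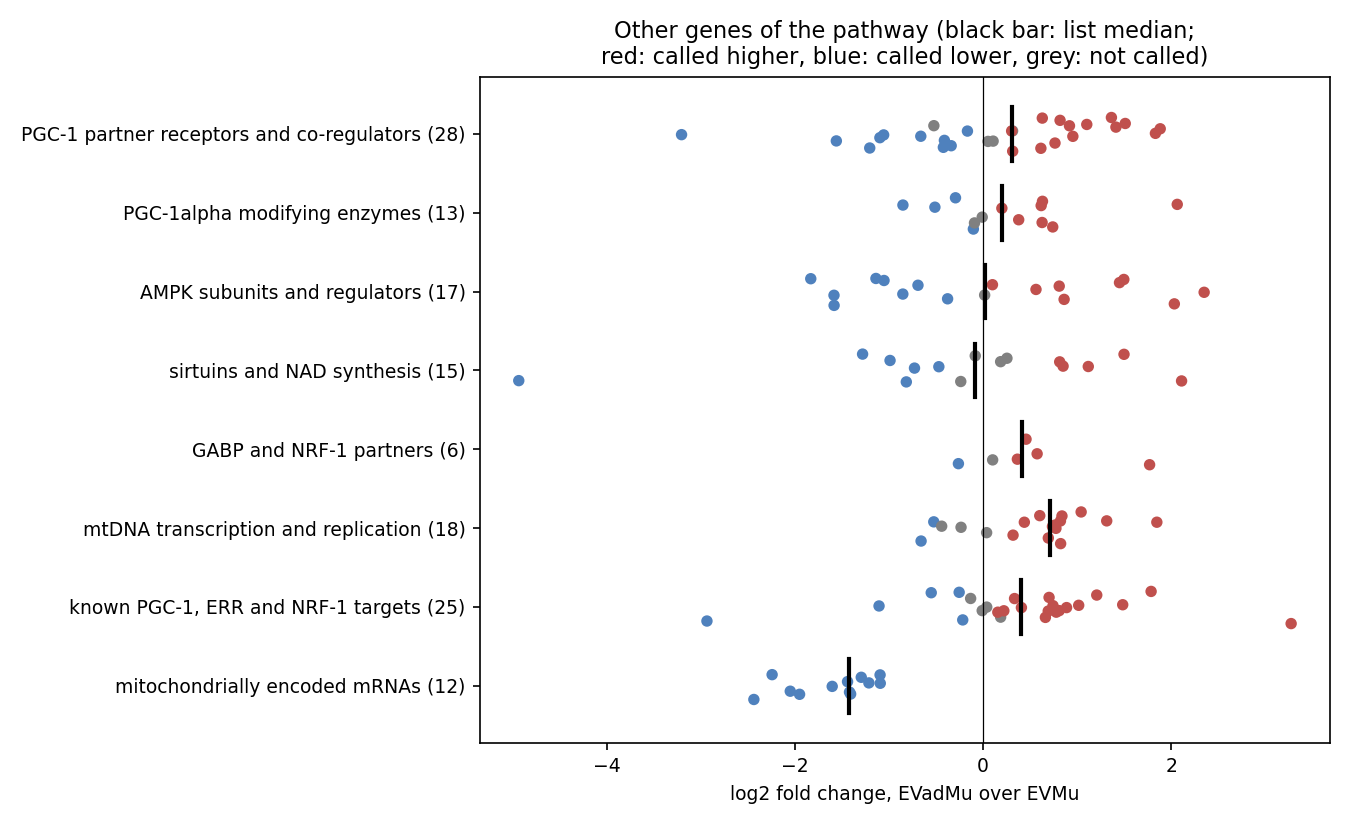
Log2 fold change, EVadMu over EVMu, of each tested gene (point) in 8 lists of the pathway outside the 10 genes, with the number tested in brackets and the list median as a black bar. The mitochondrially encoded mRNAs all lie below 0 (median -1.43), and the list for transcription and replication of mitochondrial DNA has the highest median (0.72).

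For the 3 coactivators, the most similar profiles were sought among 15347 other genes, by the Euclidean distance between log2 CPM values centred over the 6 libraries. With 2 groups this measure mostly ranks genes by the size of their change. Nearest to Ppargc1a were the noncoding RNA host gene Snhg12 (distance 0.0791) and the nuclear receptor gene Rora (0.218), at log2 fold changes of 2.74 and 2.79. Nearest to Ppargc1b were the predicted gene Gm14549 (0.148) and the retinol-binding protein gene Rbp2 (0.192). Both had low levels, at means of 1.44 and 1.42 CPM in EVadMu and 0.824 and 0.83 CPM in EVMu, so their rank rests on few counts. Nearest to Pprc1 were the ribosomal protein gene Rps2 (0.0461), which has pseudogenes that can share its reads, and the dihydrouridine synthase gene Dus3l (0.0474).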

How the data were processed

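RNA was sequenced from 6 libraries, and groups and replicate numbers came from the sample titles. The authors deposited raw counts, whole numbers of reads for each gene. Per the submitters' processing notes, CASAVA 1.8, HISAT2, SAMtools and featureCounts were used with the build mm39, a mouse build, although the samples are labelled as rat. The strand setting, annotation release and treatment of multiply mapped reads were not given in the sources used here. If rat reads were mapped to a mouse genome, the fraction recovered would depend on how well each gene is conserved, so the levels of different genes are not ranked. Sums and shares over several genes carry each gene's unknown recovery as a weight. The protocol in the labels names no step that marks strand, so reads of a gene and of an overlapping antisense gene cannot be told apart.

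The analysis used edgeR 4.0.16 in R 4.3.3. Of 56748 rows, 20965 had no counts, and 16993 passed edgeR's default filter, with 10 as the minimum count and 15 as the minimum total. After TMM scaling, the EVadMu and EVMu groups entered a quasi-likelihood F-test, with p-values adjusted by Benjamini-Hochberg over all tested genes at a threshold of 0.05. Levels are TMM-scaled CPM. The coefficient of variation beyond counting error, which edgeR terms biological, was 4.07%, and its source is not known. Within groups, the variance between any pair of libraries was 2.10 to 3.13 times that expected from counting. That excess cannot tell separate cultures from technical repeats, and each library entered the test as its own replicate. Shares, distances and motif matches were computed from the same counts and from RefSeq promoters (GRCr8).

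The 10 genes, the lists and the motifs were chosen with earlier results of these data known. Besides the 10 genes, the text names up to 3 called genes with the highest and 3 with the lowest log2 fold change of each list at a mean of at least 1 CPM, and the 2 nearest profiles of each coactivator. Alternatives were RLE, upper-quartile and no scaling factors, no filter, a stricter filter (mean of at least 1 CPM and 20 counts in 3 libraries), DESeq2 1.42.0, limma-voom (limma 3.58.1), the replicate number as a block, and leaving out each library.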

Additional observations from a re-analysis of the deposited data

How the results depend on the processing

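In edgeR's test and its 14 alternatives, the number of genes called among the 10 was 8, except for 9 with RLE factors and without EVadMu replicate 1, where Prkaa2 passed (log2 fold change 0.15 and 0.19). The 7 genes called higher and the 1 called lower kept their direction and passed under every alternative run, with Ppargc1a at 2.60 to 2.78, Sirt1 at 2.32 to 2.46 and Pprc1 at 1.30 to 1.43, and Esrra was never called (-0.11 to 0.08, adjusted p of 0.220 to 0.963). Over all genes, 12693 to 14771 were called. Without scaling factors the median of all genes lay at -0.13 instead of -0.02, and changes near that size, such as those of Esrra and Prkaa2, depend on the scaling. In that fit 15 of the 25 tested PGC-1, ERR and NRF-1 targets were higher and 8 lower, against 16 and 5 with TMM factors. Same-numbered libraries of the groups did not deviate together (correlations of -0.010 to -0.004), so the numbers were not taken to pair the samples. The fit with the replicate number as a block called 13409 genes and 8 of the 10, and changed no call among them. Leaving out a library left 1 group with 2 libraries, and 13379 to 13622 genes were called. With 77 to 161 counts per library, Ppargc1b is limited most by depth.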
